A study of Mus musculus with 9 samples.

Results

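The adipogenic lineage genes are 10 genes that mark or drive the path from a mesenchymal progenitor to a fat cell, and they were taken by symbol from the 40548 genes of the deposited expression tables. They were followed by RNA-seq in primary cells of the mouse calvaria, the flat bones of the skull vault, while the cells differentiated into osteoblasts. The cells came from C57BL/6 pups aged postnatal days 2 to 3 by the labels. Cells at day 0 had not been differentiated, and cells at day 4 and day 7 had been kept in mineralization medium, which contained ascorbic acid and β-glycerol phosphate, for that time. Each stage had 3 libraries, described as biological replicates with no statement of which pups gave which library, so p-values measure the spread between these libraries. The labels name no engineered allele. The methods describe C57BL/6J pups, either wild type or with the ColI-GFP reporter, and do not say which gave these libraries. The bone had been freed of periosteum before digestion, and no sort is described. The labels state that mineralized cells were released with collagenase I before trypsin and that non-mineralized cells were not, so release and stage changed together. Day 0 and day 7 share 1 table, and day 4 has a table of its own.

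Adipocytes and osteoblasts arise from common mesenchymal progenitors. In the textbook order of adipogenesis the C/EBP factors C/EBPβ and C/EBPδ act early and induce PPARγ and C/EBPα, which sustain each other and switch on genes for fatty acid uptake, storage and hormone secretion. Zfp423 is a zinc finger protein that commits progenitors to the fat lineage by raising PPARγ. Most of these genes are not restricted to fat: macrophages also express many of them, and endothelial cells express Cd36 and Fabp4.

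The libraries held 7741204 to 14013219 reads on genes at day 0, 32820610 to 37306090 at day 4 and 10675858 to 15622755 at day 7, and the day 0 library with the fewest was replicate 3. Osteoblast markers checked the label. Ibsp, a bone matrix protein, averaged 3.82 RPKM (reads on a gene, scaled for the length of its model and the depth of the library) at day 0 and 2808 at day 7, and Alpl, the alkaline phosphatase of mineralizing cells, ran from 8.36 to 11.5 RPKM at day 0 and averaged 209 at day 7. Sp7, a factor required for osteoblasts, averaged 22.6 and 76.5 RPKM, and Runx2, the earliest osteoblast factor, 8.06 and 9.47. Of 9 osteoblast markers tested, 8 were higher at day 7 and Runx2 did not pass the test (limma, adjusted p = 0.268), whereas after median-of-ratios scaling all 9 were higher (Runx2, adjusted p = 0.0370).

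The 10 genes ran from almost no reads for Adipoq to at most 51.5 RPKM in any library for Cebpb. The top 4 by level per length were the same at every stage. Cebpb and Cebpd led with means from 35.3 to 46.9 RPKM and could not be ordered between themselves, because their libraries overlapped at each stage. Plin2 followed at 22.1 to 27.3 RPKM and Cebpa at 6.62 to 8.72 RPKM, and the libraries of each were apart from those of the genes ranked beside it. The remaining genes lay at or under 4 RPKM in every library. At day 0 each gene overlapped with the next from Zfp423 through Fabp4, Lpl and Pparg to Cd36, and at day 4 Lpl stood above Zfp423 and Pparg, which overlapped, with Cd36 and Fabp4 below. At day 7 Lpl stood above Pparg, Cd36 and Zfp423, and Fabp4 stood below them. Cd36 overlapped with Pparg and with Zfp423, and Pparg lay above Zfp423. Adipoq was last at every stage. Among the genes with any reads in the 9 libraries, the mean level of Cebpb lay at the 95.6th percentile at day 0 and that of Pparg at the 56.7th.

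**Figure D1:**
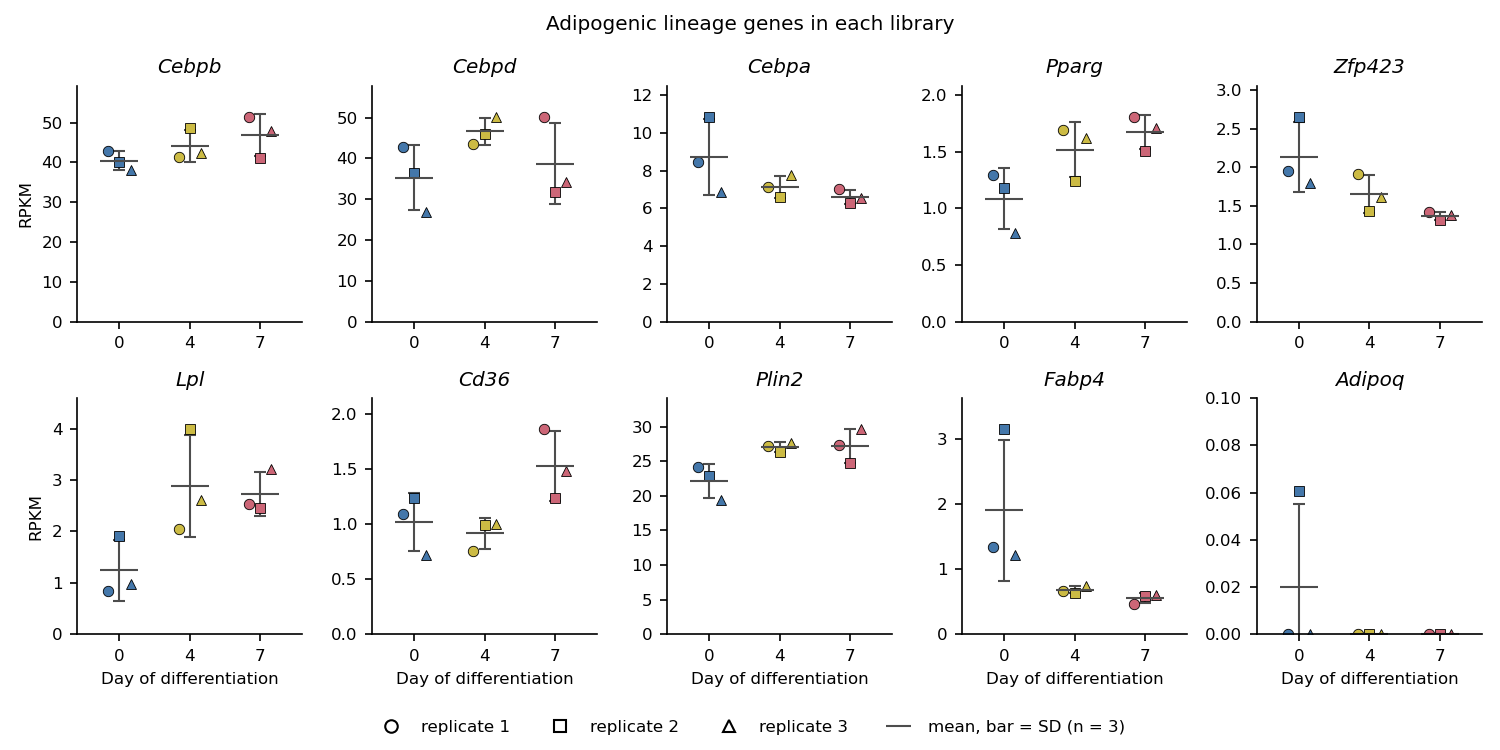
Expression of the 10 adipogenic lineage genes in RPKM (vertical axes, starting at 0) at days 0, 4 and 7 (horizontal axes). Symbols are single libraries and bars are mean and SD of 3 libraries. All day 7 libraries of Lpl, Pparg, Cd36 and Plin2 lie above all day 0 libraries, those of Zfp423 and Fabp4 lie below, and Adipoq has a value above 0 in 1 library.

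Between day 0 and day 7, 1 of the 8 genes that passed the filter for testing rose and 1 fell. The rise was that of Lpl and the fall that of Zfp423. The test was limma on log2(CPM + 0.5), where CPM is reads on a gene scaled to the depth of the library, with p-values adjusted by the Benjamini-Hochberg method over the 12712 genes whose CPM averaged 1 or more, and a threshold of 0.05. Over all genes tested, 12.6% were higher and 18.6% lower at day 7 in the same fit, so 1 of 8 in each direction is near that background. Fabp4 and Adipoq did not reach the filter and are given by their reads.

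The number of genes called higher depended on how the libraries were scaled. The deposited CPM divide by total reads on genes, and the log2 fold changes of the 12712 genes then had a median of -0.11. After median-of-ratios scaling, which sets the typical gene equal between libraries, that median was -0.01, a shift of 0.10, and 5 of the 8 genes were higher and 1 lower. The 5 were Pparg, Cebpb, Lpl, Cd36 and Plin2, and the 1 was Zfp423. Under that scaling 22.4% of all genes tested were higher and 20.5% lower. The median log2 fold change of the 8 was 0.25 with the deposited scaling and 0.36 after median-of-ratios scaling, and 6 of the 8 fold changes were above 0 with both.

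**Figure D2:**
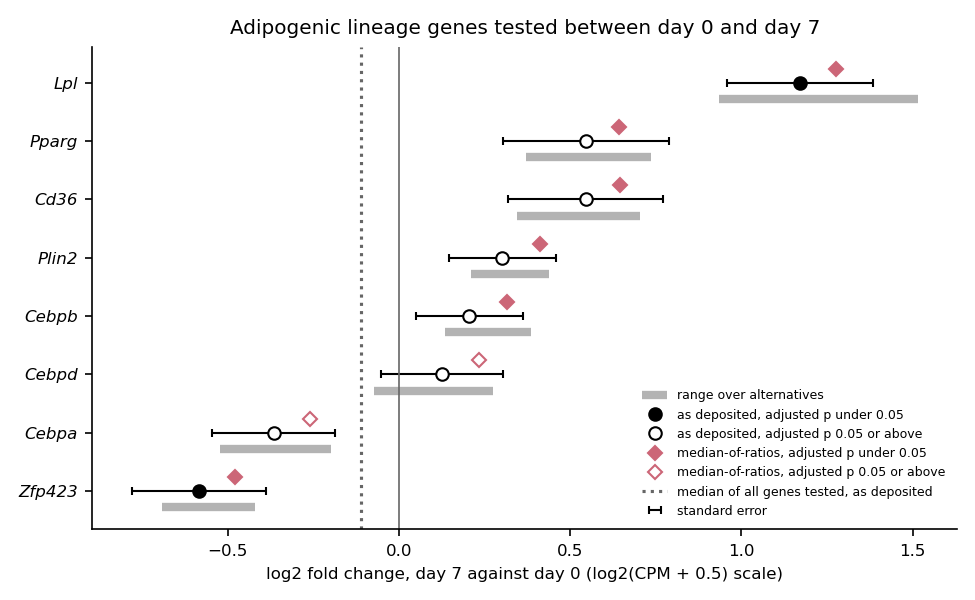
Log2 fold change of day 7 against day 0 (horizontal axis, log2(CPM + 0.5) scale) for the 8 genes tested. Circles are the deposited scaling with standard error, diamonds are median-of-ratios scaling, filled symbols have an adjusted p under 0.05, grey bars span the alternatives and the dotted line is the median of all genes tested at -0.11. Lpl at 1.17 and Zfp423 at -0.58 are filled with both scalings.

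Cebpb and Cebpd, the early factors, were abundant before differentiation began. Cebpb (chromosome 2, 167688915 to 167690418 of GRCm38, forward strand) measured 43.0, 40.2 and 38.2 RPKM in replicates 1, 2 and 3 of day 0, 41.4, 48.7 and 42.5 at day 4, and 51.5, 41.1 and 48.0 at day 7. The stages overlapped. Its log2 fold change of 0.21 (SE 0.16) between day 0 and day 7 did not pass the test (limma, adjusted p = 0.340), whereas it passed after median-of-ratios scaling (adjusted p = 0.0179). Exons of Tmem189 on the opposite strand cover 20.7% of the exon bases of Cebpb in GENCODE M21, and no source used here states whether counting used strand, so the level of Cebpb is uncertain to that extent.

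Cebpd (chromosome 16, 15887286 to 15891031, forward strand) measured 42.8, 36.4 and 26.8 RPKM at day 0, 43.6, 46.1 and 50.2 at day 4, and 50.1, 31.7 and 34.3 at day 7. Every day 4 library exceeded every day 0 library, and the 3 day 7 libraries were more spread than the gap between stages. The log2 fold change from day 0 to day 7 was 0.13 (SE 0.18; limma, adjusted p = 0.636), and it turned to -0.058 without day 0 replicate 3 and to -0.073 without day 7 replicate 1. The current gene model of Cebpd shares 15.0% of its exon bases with the opposite-strand gene Spidr, but it is longer than the 1180 bases that the deposited RPKM imply, and whether the counted part overlaps was not tested.

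Cebpa and Pparg, the pair that maintains the adipocyte state, had fold changes of opposite sign, neither of which passed the test with the deposited scaling. Cebpa (chromosome 7, 35119293 to 35121928, forward strand) measured 8.45, 10.9 and 6.86 RPKM at day 0, 7.13, 6.58 and 7.75 at day 4, and 7.03, 6.29 and 6.53 at day 7. The lowest day 0 library lay within the range of day 7. Its log2 fold change of -0.37 (SE 0.18) did not pass the test (limma, adjusted p = 0.121), nor did it after median-of-ratios scaling (adjusted p = 0.0875).

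Pparg (chromosome 6, 115360951 to 115490399, forward strand), the nuclear receptor required for fat cell formation, measured 1.29, 1.18 and 0.781 RPKM at day 0, 1.69, 1.24 and 1.62 at day 4, and 1.81, 1.51 and 1.71 at day 7. These values rest on 12 to 36 reads a library at day 0, 92 to 116 at day 4 and 32 to 53 at day 7. All 3 day 7 libraries lay above all 3 day 0 libraries. Its log2 fold change was 0.55 (SE 0.24), or 0.66 relative to the median of all genes tested, with an adjusted p of 0.0822 in limma and of 0.0108 after median-of-ratios scaling. The tables count whole genes, so the transcripts from the separate Pparg promoters were not told apart.

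Within the C/EBP family the ratio of Cebpb to Cebpa was higher at day 7 than at day 0. In RPKM it was 4.79 ± 0.97 (SD, n = 3) at day 0, 6.23 ± 1.03 at day 4 and 7.07 ± 0.46 at day 7, with day 0 libraries from 3.71 to 5.57 and day 7 libraries from 6.54 to 7.35. No day 7 library overlapped with day 0, a description with no test and no share over other gene pairs. At day 4 that ratio started at 5.48, within the range of day 0. The ratio of Cebpd to Cebpa ran from 3.35 to 5.07 at day 0, from 6.11 to 7.00 at day 4 and from 5.04 to 7.12 at day 7. Its day 7 libraries thus overlapped narrowly with day 0, and its day 4 libraries did not. Cebpg, a C/EBP protein without an activation domain, averaged 18.4 and 17.7 RPKM at day 0 and day 7 and did not pass (limma, adjusted p = 0.920). Ddit3, the stress-induced family member CHOP that can block C/EBP binding, averaged 84.4, 134 and 138 RPKM at days 0, 4 and 7 and rose by a log2 fold change of 0.71 (SE 0.15; limma, adjusted p = 0.000239).

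RXRα and RXRβ are the receptors with which PPARγ binds DNA as a pair. Rxra fell, with means of 39.1, 26.0 and 23.4 RPKM at days 0, 4 and 7 (log2 fold change -0.74, SE 0.15; limma, adjusted p = 0.000133). Rxrb averaged 15.3, 15.2 and 14.3 RPKM and did not pass (adjusted p = 0.744 in limma). At every stage both partner genes were above Pparg in RPKM.

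Zfp423 (chromosome 8, 87661810 to 87959595, reverse strand) fell. It measured 1.95, 2.65 and 1.80 RPKM at day 0, 1.92, 1.43 and 1.61 at day 4, and 1.42, 1.32 and 1.38 at day 7. All day 7 libraries lay below all libraries of day 0 and day 4, and day 4 overlapped day 0. The log2 fold change from day 0 to day 7 was -0.58 (SE 0.20; limma, adjusted p = 0.0192), or -0.47 relative to the median of all genes tested. Replicate 2 was the highest library of day 0. Without it the log2 fold change was -0.42 and the adjusted p 0.197, and without day 7 replicate 1, 2 or 3 the adjusted p was 0.0602, 0.0654 or 0.0686. It was 0.0590 when all genes with any reads were tested. Zfp521, a related zinc finger protein that represses Zfp423 and restrains adipogenesis, also fell, with means of 24.1, 18.2 and 11.7 RPKM at the 3 stages (log2 fold change -1.03, SE 0.15; limma, adjusted p = 4.1e-07).

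Lpl showed the largest change of the 8 genes tested. Lipoprotein lipase, its product, is secreted and releases fatty acids from circulating triglycerides. Lpl (chromosome 8, 68880491 to 68907448, forward strand) measured 0.838, 1.92 and 0.967 RPKM at day 0, 2.05, 3.99 and 2.61 at day 4, and 2.53, 2.45 and 3.21 at day 7. Every library of day 4 and day 7 lay above every day 0 library, and day 4 and day 7 overlapped. Mean RPKM was 2.20-fold higher at day 7 than at day 0, and the log2 fold change was 1.17 (SE 0.21; limma, adjusted p = 1.8e-05), or 1.28 relative to the median of all genes tested. The test was passed in 19 of 19 alternatives, with log2 fold changes from 0.93 to 1.51. Two-sided exact permutation tests of single genes with 3 libraries against 3 cannot give a p under 0.1, and that is the p they gave for Lpl.

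Partners of lipoprotein lipase were measured beside it. Lmf1, which matures the enzyme in the cell, averaged 1.72, 2.77 and 2.61 RPKM at days 0, 4 and 7 and rose (log2 fold change 0.58, SE 0.17; limma, adjusted p = 0.00625). Angptl4, a secreted inhibitor of the enzyme, averaged 0.954, 5.39 and 2.40 RPKM and rose as well (log2 fold change 1.22, SE 0.24; limma, adjusted p = 8.1e-05). Gpihbp1, the capillary protein that anchors the enzyme, was listed at 0 in all 9 libraries.

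Cd36 (chromosome 5, 17781690 to 17888801, reverse strand) encodes a scavenger receptor that takes up fatty acids. It measured 1.09, 1.23 and 0.723 RPKM at day 0, 0.752, 0.996 and 1.00 at day 4, and 1.86, 1.24 and 1.48 at day 7. Day 4 lay within the range of day 0. The day 7 libraries were above day 4 and above day 0, although the lowest of day 7 and the highest of day 0 were close, at 1.24 and 1.23. A log2 fold change of 0.55 (SE 0.23) did not pass with the deposited scaling (limma, adjusted p = 0.0608) and passed after median-of-ratios scaling (adjusted p = 0.0104).

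Plin2 (chromosome 4, 86648386 to 86670060, reverse strand) encodes perilipin 2, a lipid droplet coat protein of many cell types. It measured 24.1, 22.9 and 19.4 RPKM at day 0, 27.3, 26.3 and 27.7 at day 4, and 27.4, 24.8 and 29.7 at day 7. Day 4 and day 7 libraries exceeded those of day 0 and overlapped each other. A log2 fold change of 0.30 (SE 0.16) did not pass (limma, adjusted p = 0.139) and passed after median-of-ratios scaling (adjusted p = 0.00152). Of the 50-base stretches of its transcripts, 2.57% also occur in the gene Gm12551, so reads there could be split or lost. Hilpda, a hypoxia-induced inhibitor of the lipase of Pnpla2, rose from 11.5 to 40.0 RPKM (log2 fold change 1.77, SE 0.18; limma, adjusted p = 2.4e-11), whereas Pnpla2 averaged 3.28 and 2.64 RPKM and did not pass (limma, adjusted p = 0.266).

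Fabp4 (chromosome 3, 10204088 to 10208576, reverse strand), the fatty acid binding protein of fat cells, was the only one of the 10 whose libraries were apart at all 3 steps, and it was low. It measured 1.34, 3.15 and 1.22 RPKM at day 0, 0.669, 0.631 and 0.740 at day 4, and 0.460, 0.588 and 0.603 at day 7. Those values are 12, 24 and 6 reads, then 14, 15 and 17, then 4, 4 and 6. The lowest library of day 4 and the highest of day 7 were close, at 0.631 and 0.603 RPKM. The share of all genes apart at all 3 steps was not counted. Mean RPKM was 3.46-fold lower at day 7 than at day 0, and day 0 replicate 2 was the highest library. Fabp4 was under the filter of the test. When all genes with any reads were tested, its log2 fold change was -0.94 (limma, adjusted p = 0.0119) and, in edgeR on recovered reads, chosen after seeing the data, -1.67 (adjusted p = 0.00266).

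Adipoq (chromosome 16, 23146536 to 23158028, forward strand), which encodes the fat cell hormone adiponectin, had 1 read in day 0 replicate 2 and none in the other 8 libraries. A count of 0 allows up to 3 reads a library, counting error only. The floor of 3 reads is under 0.5 CPM in every library. The ratio of Plin2 to Fabp4 in RPKM was 13.7 ± 5.7 (SD, n = 3) at day 0, 40.0 ± 2.2 at day 4 and 50.3 ± 8.8 at day 7. It rests on 6 to 24 reads of Fabp4 a library at day 0, 14 to 17 at day 4 and 4 to 6 at day 7. Since endothelial cells also express Fabp4, the ratio does not set other cells against fat cells.

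Upstream sequence was shown for members at both ends of the range. RefSeq promoters of GRCm38.p6 were given for 7 of the 10 genes as 10 windows, and the 250 bases before each start were read from the sense strand. No window was matched for Cebpd, Fabp4 and Lpl. The windows of Cebpb and Cebpa stand for the factors, the most downstream of the 3 Pparg windows for a start inside the gene, Plin2 for a widely expressed member and Adipoq for the member with 1 read. Capitals mark matches on either strand to the TATA box (TATAAA), the CCAAT box (CCAAT), the cAMP response half-site (TGACG), the GC box (GGGCGG), the nuclear receptor half-site (AGGTCA) and a C/EBP palindrome (TTGCGCAA). Sequences run 5′ to 3′, each ending at the base before the start.
Cebpb, chr2:167688665-167688914, forward: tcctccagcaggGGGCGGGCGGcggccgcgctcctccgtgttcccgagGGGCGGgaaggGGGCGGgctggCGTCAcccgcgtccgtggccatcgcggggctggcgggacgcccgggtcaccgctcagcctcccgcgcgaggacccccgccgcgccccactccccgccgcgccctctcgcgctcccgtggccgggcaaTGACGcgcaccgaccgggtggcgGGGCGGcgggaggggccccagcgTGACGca
Cebpa, chr7:35119043-35119292, forward: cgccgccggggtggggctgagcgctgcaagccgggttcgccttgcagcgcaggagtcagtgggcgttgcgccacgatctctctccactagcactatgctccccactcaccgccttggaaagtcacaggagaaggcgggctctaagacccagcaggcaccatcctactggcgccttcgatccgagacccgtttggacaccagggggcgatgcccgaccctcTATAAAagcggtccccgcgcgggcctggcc
Pparg, chr6:115421816-115422065, forward: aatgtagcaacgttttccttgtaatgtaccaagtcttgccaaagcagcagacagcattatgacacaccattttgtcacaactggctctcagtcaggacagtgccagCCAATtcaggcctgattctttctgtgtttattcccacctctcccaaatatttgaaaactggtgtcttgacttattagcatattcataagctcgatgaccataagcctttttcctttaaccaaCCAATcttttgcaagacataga
Plin2, chr4:86670060-86670309, reverse: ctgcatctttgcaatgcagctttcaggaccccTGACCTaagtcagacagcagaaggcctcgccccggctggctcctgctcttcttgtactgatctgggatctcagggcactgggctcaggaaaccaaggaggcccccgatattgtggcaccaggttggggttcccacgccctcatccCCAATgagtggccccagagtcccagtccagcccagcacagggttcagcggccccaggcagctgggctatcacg
Adipoq, chr16:23146286-23146535, forward: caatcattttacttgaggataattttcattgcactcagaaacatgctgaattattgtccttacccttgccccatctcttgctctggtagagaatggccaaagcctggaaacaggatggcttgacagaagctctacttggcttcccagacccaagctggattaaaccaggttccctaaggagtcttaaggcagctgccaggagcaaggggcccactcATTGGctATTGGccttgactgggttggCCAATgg

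The Cebpb window was 81.6% G and C with 41 CpG dinucleotides, and it held 5 GC boxes, the first 2 of them overlapping, and 3 cAMP response half-sites. The Cebpa window held a TATA box whose first base lies 30 bases before the start and no other match. The Pparg window shown and the Adipoq window were 40.8% and 48.8% G and C with 2 and 0 CpG. They held CCAAT boxes but no TATA or GC box. Of the Pparg windows not shown, the first was 82.4% G and C and held a GC box. The second, at 63.6%, held a TATA box, a CCAAT box and GC boxes, and each had a nuclear receptor half-site. Plin2 had 1 CCAAT box and 1 nuclear receptor half-site. Over 32851 windows of the same length, the median was 52.4% G and C with 6 CpG. Of those windows 12.4% held TATAAA, 33.8% CCAAT, 17.8% TGACG, 32.7% GGGCGG, 14.0% AGGTCA and 0.164% TTGCGCAA, and no window of the 7 genes held the last. A match describes letters and not a bound site.

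Between stages that were not tested, the libraries were compared by overlap of the deposited RPKM. Overlap after median-of-ratios scaling was not counted, here or for the single genes above. From day 0 to day 4, among the 8 genes above the filter, Cebpd, Lpl and Plin2 had libraries that did not overlap and were higher, and none was lower. Over all genes above it, 21.6% were higher and 21.9% lower without overlap. From day 4 to day 7 Cd36 was higher and Zfp423 lower without overlap, against 13.6% and 25.0% of all genes. From day 0 to day 7 Pparg, Lpl, Cd36 and Plin2 were higher and Zfp423 was lower, against 16.9% and 25.4%. Stage, table and depth changed together in the comparisons with day 4, and their parts cannot be told apart.

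Libraries of a stage deviated together for several of these genes. Day 0 replicate 3, the shallowest library, was the lowest of its stage for 8 of the 9 genes with reads in all libraries, and day 0 replicate 2 was the highest for Lpl, Fabp4, Cebpa, Zfp423 and Cd36. Day 0 replicate 3 had a median-of-ratios factor, by which CPM are divided, of 0.877, against 1.13 in replicates 1 and 2. At day 7 replicate 2 was lowest for Cebpb, Cebpd, Cebpa, Pparg, Zfp423, Lpl, Cd36 and Plin2, with a factor of 0.901. These factors are taken over all genes tested. The share of all genes lowest in the same libraries was not counted, so the pattern is not shown to be particular to these genes.

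**Figure D3:**
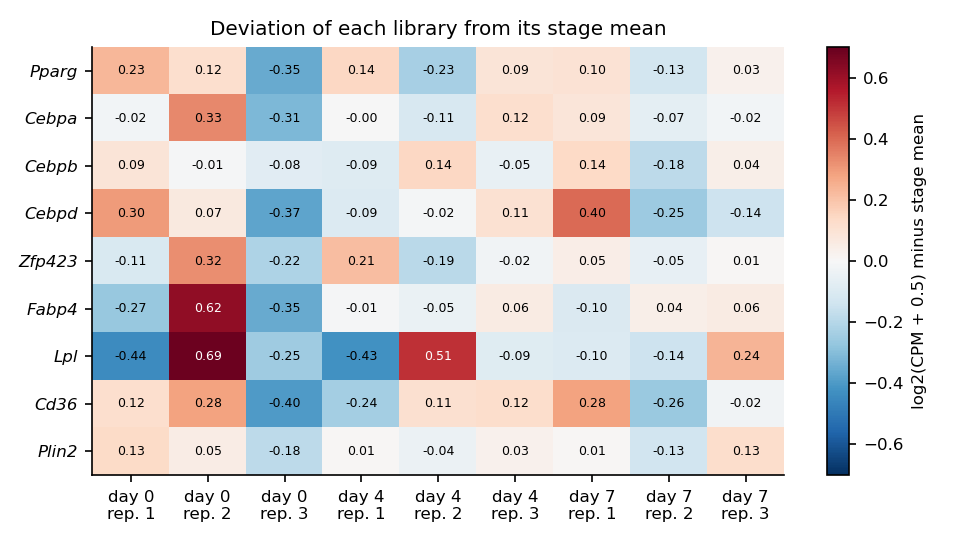
Deviation of each library (columns) from the mean of its stage in log2(CPM + 0.5), for the 9 genes with reads in all libraries (genes in order from top). Red is above and blue below the stage mean, with values printed. The largest is 0.69, for Lpl in day 0 replicate 2.

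The libraries contained little RNA of mature fat cells. Of 10 further genes that define mature adipocytes, Lep, Retn, Cidec and Ucp1 were listed at 0 in all 9 libraries, and Plin1, Cfd, Cidea, Aqp7 and Pck1 had at most 3 reads in any library. Plin4, a droplet coat protein also made in muscle, reached 0.728 RPKM and was the only one of the 10 tested (log2 fold change 0.64, SE 0.26; limma, adjusted p = 0.0520, and 0.0167 after median-of-ratios scaling). The summed RPKM of the 10 was 0.319 to 0.568 at day 0, 0.479 to 0.809 at day 4 and 0.519 to 0.663 at day 7. In bulk samples fewer cells of a type and less RNA per cell cannot be told apart.

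The summed macrophage markers were higher in every day 7 library than in any day 0 library, as were Pparg, Lpl, Cd36 and Plin2. Zfp423 and Fabp4 were lower without overlap, and Cebpa, Cebpb and Cebpd overlapped. Of 15 markers all had reads, 14 were tested and 14 were higher at day 7, with a summed RPKM of 53.8 to 89.9 at day 0, 107.5 to 123.7 at day 4 and 112.7 to 148.7 at day 7. Day 0 replicate 2 was the highest day 0 library for this sum and for Lpl, Fabp4, Cd36, Cebpa and Zfp423. Pparg, Cebpb, Cebpd and Plin2 were highest in day 0 replicate 1. At day 7 the sum, Pparg, Cebpa, Cebpb, Cebpd, Zfp423 and Cd36 were highest in replicate 1. Lpl, Fabp4 and Plin2 were highest in replicate 3. The sum was lowest in replicate 2, as were all of these genes but Fabp4. Endothelial markers summed to 2.13 to 3.15 RPKM at day 0, 2.04 to 3.04 at day 4 and 3.06 to 3.78 at day 7. Of the 11, 3 were tested, 1 was higher and 1 lower, and 1 and 0 after median-of-ratios scaling. Tie1 and Emcn were listed at 0 in all libraries. Skeletal muscle markers summed to 2.63 to 4.07, 6.88 to 11.3 and 4.85 to 8.50 RPKM at the 3 stages. Of 10, 2 were tested and both were higher with both scalings. Chondrocyte markers summed to 178 to 501, 146 to 244 and 202 to 324 RPKM. Of 7 tested, 3 were higher and 3 lower, and 2 and 3 after median-of-ratios scaling. The part of these cell types in the results on Lpl, Cd36, Plin2, Pparg and Fabp4 was not tested.

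**Figure D4:**
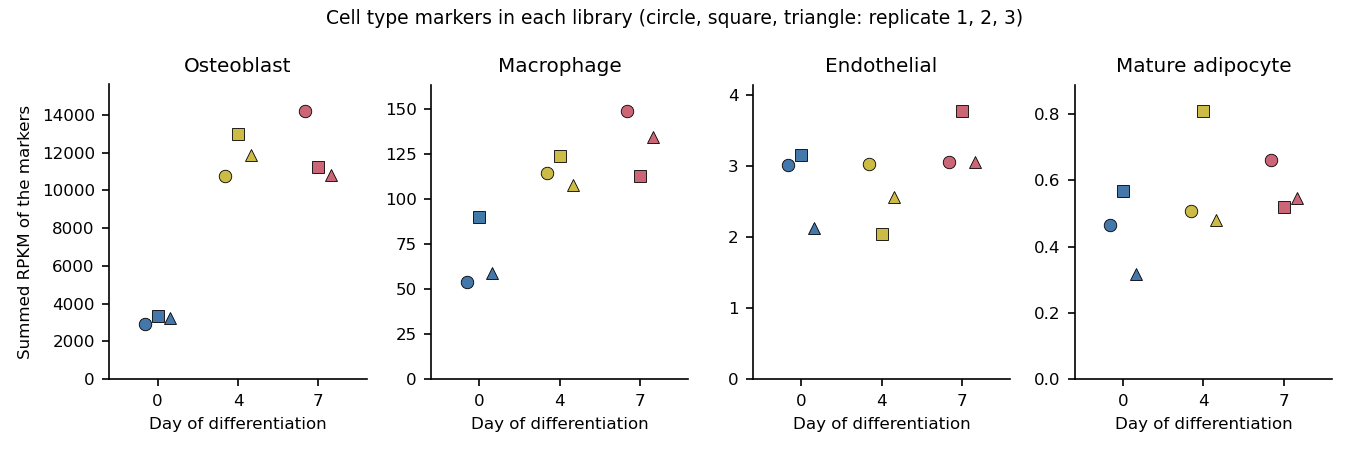
Summed RPKM of marker genes (vertical axes, starting at 0) in each library at days 0, 4 and 7 (horizontal axes), for osteoblast, macrophage, endothelial and mature adipocyte markers. Macrophage sums are at most 89.9 at day 0 and at least 107.5 later, and the adipocyte sum stays under 0.81 in all 9 libraries.

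Other genes of adipogenesis moved in both directions, as did genes at large. Of all genes tested 12.6% were higher and 18.6% lower at day 7, and 22.4% and 20.5% after median-of-ratios scaling. The counts of this and the following lists are to be read beside these shares, and no list was tested as a set. Among 22 transcription factors and partner proteins of the adipogenic program, 21 were tested, 3 were higher and 6 lower at day 7, and 4 and 7 after median-of-ratios scaling, with a median log2 fold change of -0.16 against -0.11 for all genes. The 3 were Klf4, Nr1h3, the liver X receptor LXRα, and Ddit3, whose product can hinder C/EBP factors as stated above. Klf4, which helps induce Cebpb, rose from 18.6 to 67.4 RPKM (log2 fold change 1.86, SE 0.16; limma, adjusted p = 7.4e-14). Ebf3, an early B cell factor family member, fell from 2.77 to 0.914 RPKM (log2 fold change -1.49, SE 0.20; limma, adjusted p = 5.3e-08).

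Among 17 genes that restrain adipogenesis, 14 were tested, 3 were higher and 4 lower, and 5 and 3 after median-of-ratios scaling. Wnt10b, a ligand that holds progenitors out of the fat lineage, rose from 6.87 through 13.2 to 19.7 RPKM (log2 fold change 1.53, SE 0.18; limma, adjusted p = 2.5e-09), and the largest fall was that of Zfp521. The median was -0.08, and without day 7 replicate 2 the 4 lower became 2.

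Among 12 markers of adipocyte progenitors, 9 were tested, 2 were higher and 4 lower, and 2 and 3 after median-of-ratios scaling, with a median of -0.19. Lepr, the leptin receptor of marrow stromal cells, rose from 2.07 to 9.83 RPKM (log2 fold change 2.25, SE 0.18; limma, adjusted p = 6.2e-15). Pdgfrb, a growth factor receptor of perivascular progenitors, fell from 74.2 to 30.7 RPKM (log2 fold change -1.27, SE 0.15; limma, adjusted p = 1.9e-09).

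For fatty acid and lipoprotein uptake, 20 of 23 genes were tested, 7 were higher and 6 lower, and 7 and 5 after median-of-ratios scaling. Fabp3, the fatty acid binding protein of heart and muscle, rose from 1.21 to 13.5 RPKM (log2 fold change 2.96, SE 0.22; limma, adjusted p = 2e-15), while Fabp4 was lower in every later library than at day 0. Slc27a6, a fatty acid transporter, fell from 0.883 to 0.166 RPKM (log2 fold change -1.66, SE 0.30; limma, adjusted p = 1.5e-05).

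For triglyceride synthesis, droplet coat and lipolysis, 18 of 25 genes were tested, 3 were higher and 4 lower, and 5 and 4 after median-of-ratios scaling, with a median of 0.03. The 4 lower became 1 without day 0 replicate 1, day 0 replicate 2 or day 7 replicate 3, and 2 without day 7 replicate 1 or 2. Hilpda had the largest rise. Lpin1, a phosphatidate phosphatase, had the largest fall, from 6.61 to 4.46 RPKM (log2 fold change -0.56, SE 0.17; limma, adjusted p = 0.00717).

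Of 12 further PPAR targets 7 were tested, 3 were higher and 1 lower with both scalings. Without day 7 replicate 1 the 3 became 0, and they became 1 when all genes with any reads or those with a mean CPM of 5 or more were tested, while the 1 lower became 2 without day 0 replicate 3. Ucp2, a mitochondrial carrier, rose from 0.243 to 0.507 RPKM (log2 fold change 0.92, SE 0.26; limma, adjusted p = 0.00422), and Cpt1a, which brings fatty acids into mitochondria, fell from 10.2 to 5.79 RPKM (log2 fold change -0.81, SE 0.16; limma, adjusted p = 9.4e-05). Of 12 secreted products and adiponectin receptors 6 were tested, 4 were higher and none was lower with both scalings, and 1 was lower without day 0 replicate 3. Rbp4, the retinol carrier, rose from 0.452 to 7.70 RPKM (log2 fold change 3.24, SE 0.25; limma, adjusted p = 2.7e-15).

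**Figure D5:**
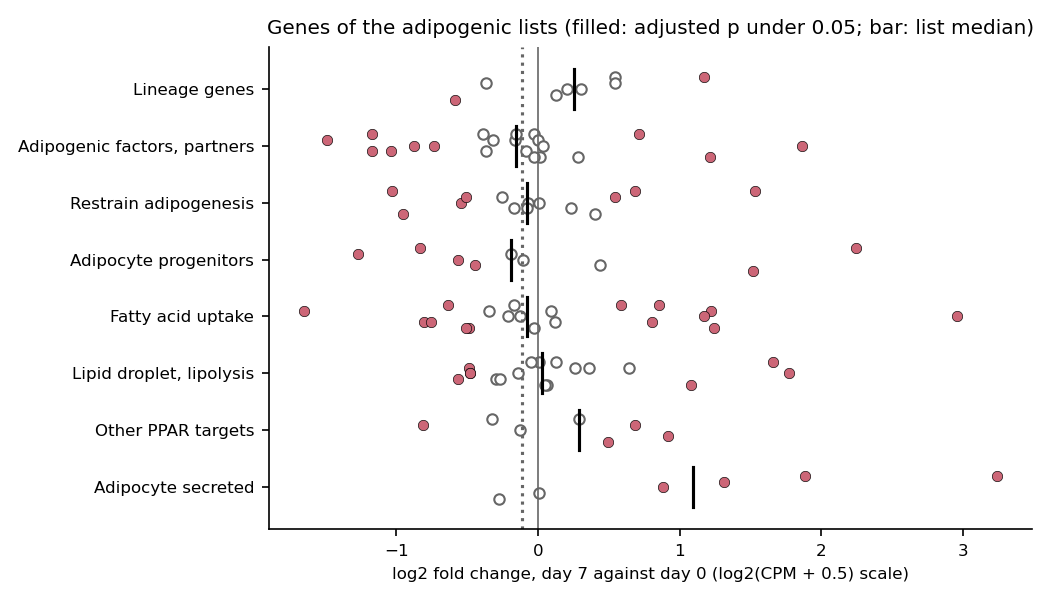
Log2 fold change of day 7 against day 0 (horizontal axis, log2(CPM + 0.5) scale) for each tested gene of 8 lists (vertical axis). Filled points have an adjusted p under 0.05, black bars are list medians and the dotted line is the median of all genes tested. Every list but the secreted products holds filled points on both sides of 0.

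Genes whose pattern was most like that of each member were named by Pearson's r of log2(CPM + 0.5) over the 9 libraries, among up to 8950 genes whose CPM averaged 10 or more. The libraries share stage, table and depth, so r is a description. Pparg was most like Gpx8 (r = 0.985), Gpx1 and Gpsm2, and Cebpa was most like Atf2 (0.977), Ccdc93 and Dhrs4. Lpl was closest to Fhl1 (0.966), C2cd5 and Gfra4, and Zfp423 to Zc3h4 (0.978), Papd7 and Cdk14. Cd36 followed Rfxap (0.985), Mpst and Mcoln1, and Plin2 followed Lrrc45 (0.984), Mrpl17 and Nme1. Cebpd matched Kdm2a (0.980), Cstf2 and Ptp4a1. Cebpb had 7 genes over 0.9, with Tmem181a (0.926), Unk and Gatd1 at the top, against 160 for Pparg.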

How the data were processed

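Ribosomal RNA was depleted and total RNA sequenced from 9 libraries. According to the methods and labels, the authors aligned reads with STAR 2.0.4b to Ensembl release 76 (GRCm38) and counted unique, unambiguous reads per gene with featureCounts 1.4.5. The deposited CPM values scale reads to the library total, and the deposited RPKM values also divide by gene model length. Reads were recovered from the CPM steps, and at least 99.99% of values were whole within 0.01. The 276 and 273 repeated lines per table were used once.

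The comparison of day 7 with day 0 was fitted in limma 3.58.1 (R 4.3.3), allowing the variance to follow the mean, on log2(CPM + 0.5) of the 12712 genes whose CPM averaged 1 or more, with Benjamini-Hochberg adjustment at 0.05. The variance prior carried 42.9 degrees of freedom and the residuals 4, which gives a gene's own replicates little weight. edgeR 4.0.16 and DESeq2 1.42.0 on recovered reads were alternatives. Exact permutation tests used scipy 1.17.1. Day 4 entered no test.

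Named are all 10 genes, in each list the genes past the threshold with the largest rise and fall, partners acting directly with a member, all adipocyte-defining markers, Runx2, Sp7, Alpl and Ibsp, and the 3 genes most like each member. Members and lists were chosen with earlier results of these data known. Positions are from GENCODE M21 and promoters from RefSeq (GRCm38.p6).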

Additional observations from a re-analysis of the deposited data

How the results depend on the processing

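With the deposited scaling 1602 of all genes tested were higher and 2369 lower at day 7. The number higher was 2581 with DESeq2, 2825 with TMM scaling, 2818 with edgeR, 2843 with median-of-ratios scaling and 3148 with voomWithQualityWeights. Leaving out 1 library in turn gave 1174 to 1603 higher and 1527 to 4696 lower. Of the adipogenic lineage genes 1 was higher, and 4 were with DESeq2, 2 with the RPKM table, without the trend and with robust variances, and 5 with TMM scaling, edgeR, edgeR on genes with any reads (chosen after seeing the data), median-of-ratios scaling and voomWithQualityWeights. The number lower was 1, and 2 with edgeR on genes with any reads (Zfp423 and Fabp4) and with voomWithQualityWeights (Zfp423 and Cebpa). With limma on genes with any reads the 1 lower was Fabp4, and Zfp423 did not pass. Leaving out 1 library gave 1 to 2 higher and 0 to 2 lower. The log2 fold change of Cebpd, 0.13, turned to -0.058 without day 0 replicate 3 and to -0.073 without day 7 replicate 1, and leaving out 1 library in turn gave -0.073 to 0.28. Zfp423 passed in 14 of 19 alternatives, Cd36 in 8 of 18, Pparg in 6 of 18, Cebpb and Plin2 in 5 of 19, Cebpa in 2 of 19 and Cebpd in 0 of 19. The causes were not tested.

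The deviations of same-numbered libraries of day 0 and day 7 from their stage means correlated at -0.02, -0.18 and -0.44. With 3 libraries a stage, and library-wide differences within these deviations, such values cannot decide whether replicate numbers pair the libraries. With the replicate block 1463 genes were higher and 1950 lower, and Lpl and Zfp423 kept their calls. Reads limit Pparg, Fabp4 and Adipoq most.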
